A study of Mus musculus with 8 samples.

Results

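Histone modifying enzymes and chromatin remodellers were read out in mouse hearts with and without Mettl3 in cardiomyocytes. Members were the protein-coding genes outside chromosome Y whose symbol opened with Kmt, Kdm, Hdac, Setd, Chd, Smarc, Arid, Ezh1, Ezh2, Ep300 or Crebbp followed by the family's number or letters, and whose mean over the 8 libraries was at least 3. Of 23045 genes in the table, 83 had such a name and 79 were members. The pseudogenes Hdac1-ps and Smarca5-ps, Kdm5d on chromosome Y, and Kdm4d with a mean of 1.5 were left out, and the lowest members were Chd5 with a mean of 6.38 and Kdm8 with 18.4.

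Total RNA of hearts was compared between 4 WT and 4 Mettl3 KO libraries. Both groups carried loxP-flanked Mettl3 alleles (Mettl3lox/lox), and the Mettl3 KO mice also carried αMHC-MerCreMer, a tamoxifen-activated Cre recombinase made in cardiomyocytes from a myosin heavy chain promoter. Per the study's methods, both genotypes were injected with tamoxifen on 7 days, at 100 µg per 1 g body weight and an age of 10 to 16 weeks. The WT mice lacked the Cre, so effects of the transgene and of the deletion cannot be told apart. METTL3 is the enzyme that places N6-methyladenosine (m6A) on RNA, and the comparison asked which transcripts differ once cardiomyocytes lose it.

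DNA is wrapped around histones, and enzymes that add or remove acetyl and methyl groups on histone tails mark genes and enhancers as active or silent. Acetyltransferases and H3K4 methyltransferases act at active genes, Polycomb repressive complex 2 (PRC2) and deacetylases are tied to repression, and demethylases remove methyl marks. CHD, SMARC and several ARID proteins belong to ATP-driven machines that slide or evict nucleosomes. In the heart, p300, class IIa deacetylases and the BRG1 remodeller are known for their parts in cardiac growth and in the expression of myosin genes.

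Normalized read counts, whole numbers scaled between libraries by the authors, came to totals of 2839589 to 2881849 in the WT libraries and 2840184 to 2916986 in the Mettl3 KO libraries. Mettl3 itself held 105, 133, 118 and 107 in WT hearts, against 74, 68, 69 and 78 in Mettl3 KO hearts, lower in all 4 (log2 fold change -0.67, limma adjusted p = 0.000184). The count covers the whole gene, transcripts with and without the deleted part alike. Markers of all 8 cell types or states examined were present, with no marker at 0 in every library. The summed level of 6 cardiomyocyte markers was 21973 to 23057 in WT and 20483 to 22867 in Mettl3 KO libraries, with 1 gene lower. Fibroblast markers summed to 3493 to 3883 and 4398 to 5060, with 7 of 8 genes higher in Mettl3 KO hearts. Endothelial markers summed to 5508 to 5634 and 4978 to 5412, with 4 of 8 lower and 1 higher. Atrial markers summed to 126 to 294 and 332 to 1318, with 5 of 6 higher. Smooth muscle and pericyte markers summed to 4502 to 4901 and 4191 to 4496, with 1 of 8 lower, and lymphocyte markers to 13 to 25 and 10 to 28, with 0 of 6 called by limma. The atrial markers were used as a covariate in an alternative fit. It is given beside the calls it changed among members and among related genes called in the main fit. The part of the other markers in the results was not tested. In RNA of whole tissue fewer cells of a type and less RNA per cell cannot be told apart.

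All 79 members were tested. Of them, 4 passed an adjusted p of 0.05 in limma (5.06%), where 7.91% of the 20313 genes tested did. Ep300 rose, against a background of 4.72% of genes called higher, and Smarca4, Kdm5a and Chd6 fell, against 3.19% called lower. Among protein-coding genes with a mean of at least 100, a class closer in level to the members, 14.8% were called. Values of the genotypes did not overlap for 11 members (13.9%), 2 higher and 9 lower, against 11.5% of all genes tested and 20.1% of that protein-coding class. Of such genes, 1313 were higher and 1024 lower over all genes tested, and 766 and 566 in that class. An unadjusted p under 0.05 was reached by 15 members (19.0%), by 20.6% of all genes and by 31.4% of that class. Called members numbered 7 under quantile scaling, where 8.07% of all genes were called. They numbered 5 with the atrial markers as covariate (4.3% of all genes) and 2 without WT replicate 2 (5.62%).

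The median log2 fold change of members, Mettl3 KO minus WT on the log2(value + 1) scale, was -0.03, and that of all genes -0.01. Single members ranged from -0.29 in Arid3b to 0.48 in Smarca1, and 48 lay below 0 and 31 above. The median size of the change regardless of sign was 0.086, against 0.17 over all genes and 0.091 over protein-coding genes with a mean of at least 100. The intervals say how large a change could have gone uncalled. For 75 members the 95% interval of the fold change lay within 1.5-fold in either direction. The median member had a mean value of 338, where that of all genes tested was 38.6.

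**Figure D1:**
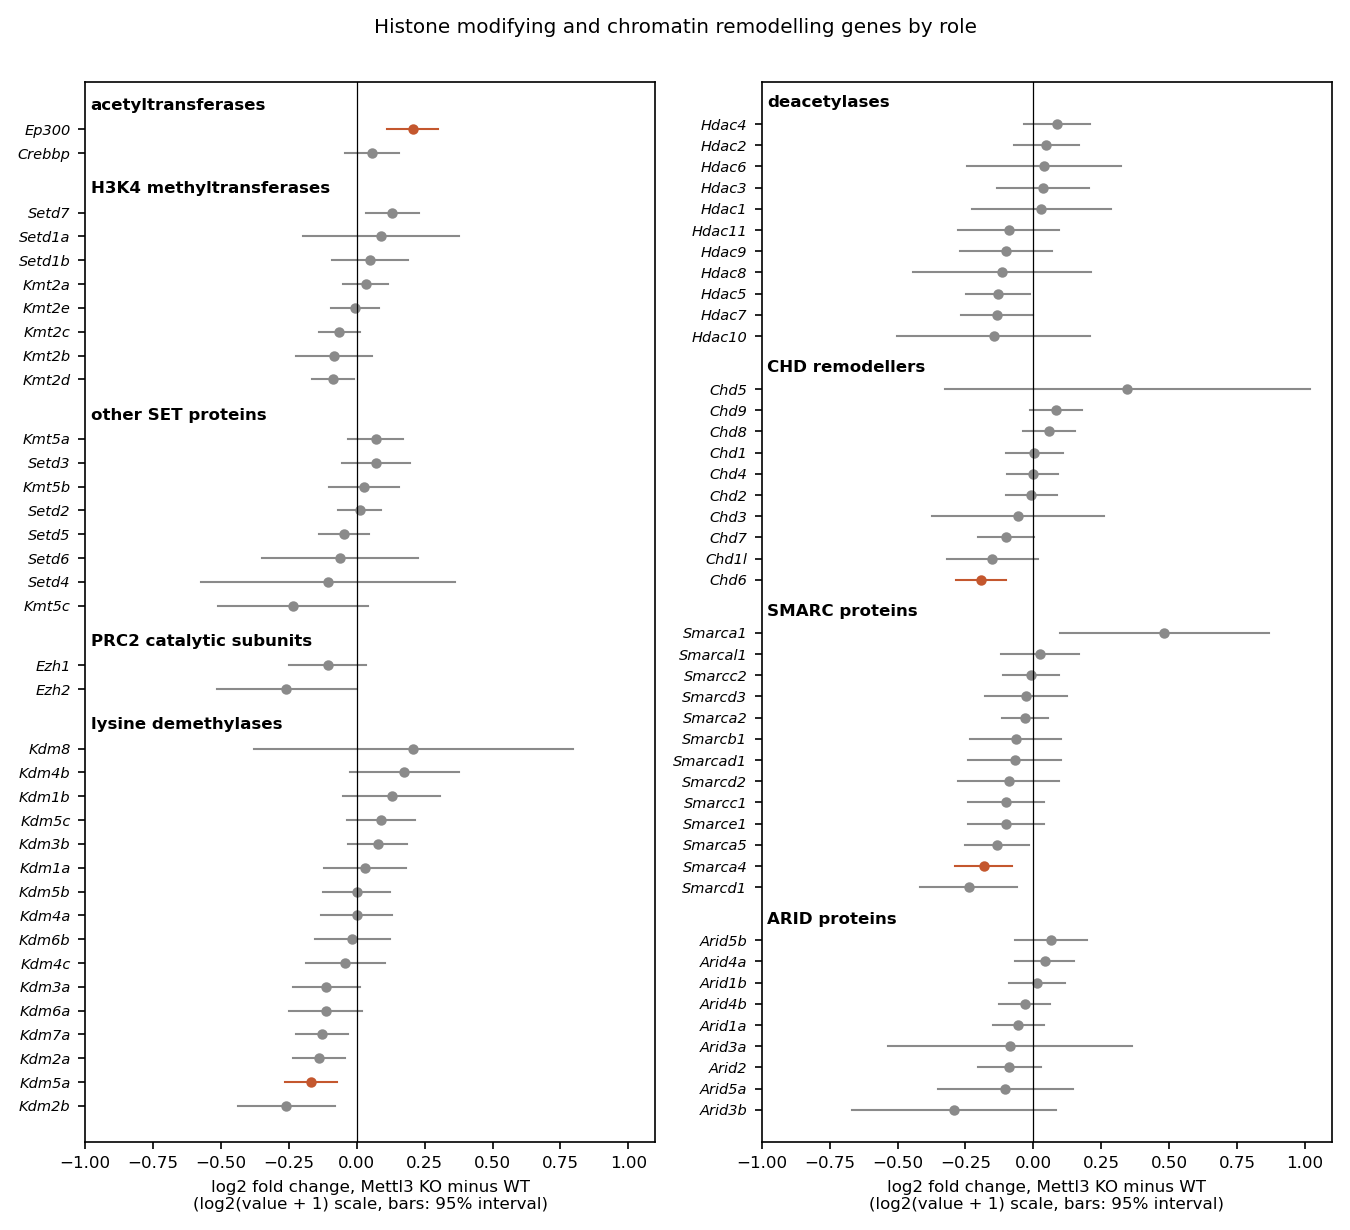
Log2 fold change of each of the 79 members, Mettl3 KO minus WT (x axis, log2(value + 1) scale), grouped by role, with points for the limma estimate and bars for its 95% interval. The 4 members with an adjusted p under 0.05 are in orange, with Ep300 at 0.21 right of 0 and Chd6, Smarca4 and Kdm5a between -0.19 and -0.17 left of it.

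The acetyltransferases were examined first. EP300 and its close relative CREBBP acetylate histones, H3K27 among other sites, at enhancers and promoters. Ep300 (ENSMUSG00000055024, mm39 chromosome 15, 81469552 to 81536278, plus strand) held 676, 663, 657 and 697 normalized read counts in WT hearts and 754, 819, 782 and 754 in Mettl3 KO hearts. All 4 Mettl3 KO libraries lay above all WT libraries. Its mean rose from 673 ± 17.7 to 777 ± 30.8 (SD, n = 4), 115.4% of the WT level. The difference on the log2 scale was 0.21, with an SE of 0.045 (adjusted p = 0.00518 in limma). It stayed below 0.05 without any 1 library, with adjusted p between 0.00406 and 0.0308, and was no longer called with an index of the 6 atrial markers as a covariate (0.16, adjusted p = 0.212).

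Crebbp held 983, 930, 893 and 1019 in WT hearts, against 926, 1014, 1041 and 994 in Mettl3 KO hearts. The groups overlapped over most of their range, and its log2 fold change was 0.06 (95% interval -0.04 to 0.16). Within each library, the log2 ratio of Ep300 to Crebbp lay between -0.55 and -0.44 in WT and between -0.41 and -0.30 in Mettl3 KO hearts. The ratio was thus higher in every Mettl3 KO library than in any WT library. It is not corrected for transcript length and does not rank the levels of both genes. Of 8 other lysine acetyltransferases, none passed the test, beside 7.91% of all genes tested. Their log2 fold changes lay between -0.07 and 0.07.

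Writers of histone methylation had no member past the threshold, which 7.91% of all genes tested passed. Among 8 genes grouped by name as H3K4 methyltransferases, Kmt2e included, 4 lay above 0 and 4 below, with a median of 0.01. Kmt2c and Kmt2d encode the enzymes that monomethylate H3K4 at enhancers, and Kmt2d is a known congenital heart disease gene. Kmt2d held 1364, 1388, 1431 and 1363 in WT hearts, against 1295, 1267, 1339 and 1323 in Mettl3 KO hearts. Every Mettl3 KO library was below every WT library, yet the difference was small at -0.09 (limma adjusted p = 0.184), and was called only under quantile scaling (-0.11, adjusted p = 0.0398). Setd7, whose product monomethylates H3K4 and other proteins, differed the other way without overlap, with 720, 740, 745 and 743 against 874, 761, 806 and 791 (0.13, limma adjusted p = 0.0947). It was called only with the atrial index as covariate, at 0.23 (adjusted p = 0.0450). The remaining 6, among them Kmt2a, Kmt2b, Setd1a and Setd1b, had overlapping groups.

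The 8 other SET genes had a median log2 fold change of -0.02, with 4 on either side of 0. Setd2 encodes the writer of H3K36 trimethylation that travels with RNA polymerase II. It held 1012, 1003, 1002 and 1044 in WT hearts, against 1039, 1015, 1019 and 1018 in Mettl3 KO hearts. Its interval, -0.07 to 0.09, was among the narrower ones. Kmt5a and Kmt5b, writers of H4K20 methylation, stood at 0.07 and 0.03, and Kmt5c, a low gene with a mean of 62.0, at -0.23 with an interval of -0.51 to 0.04.

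EZH1 and EZH2 are the alternative catalytic subunits of PRC2, which trimethylates H3K27, and EZH2 is known to prevail in dividing cells. Ezh1 held 354, 318, 355 and 340 in WT hearts, against 286, 364, 308 and 314 in Mettl3 KO hearts, and Ezh2 108, 119, 78 and 122 and 78, 85, 94 and 95. The log2 ratio of Ezh1 to Ezh2 lay between 1.41 and 2.17 in WT and between 1.70 and 2.09 in Mettl3 KO hearts. Read counts were not corrected for transcript length, so this ratio does not rank the levels of both genes. The log2 fold change of Ezh2 was -0.26 (limma adjusted p = 0.234), and WT replicate 3, the low WT library, decided the call, since it was -0.40 without that library (adjusted p = 0.0234). With the atrial index as covariate it was -0.67 (adjusted p = 0.0181). Cycling cell markers summed to 498, 735, 296 and 590 in WT hearts, against 433, 403, 293 and 390 in Mettl3 KO libraries, with 1 of 6 genes lower. WT replicate 3 was lowest among WT for both Ezh2 and these markers. Among Mettl3 KO libraries, replicate 1 was lowest for Ezh2, at 78, and highest for the markers, at 433. The part of these markers in the level of Ezh2 was not tested. None of 9 related PRC2 genes was called, beside 7.91% of all genes tested.

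Lysine demethylases, grouped by the symbol Kdm, were the largest role, with 16 genes. The KDM5 enzymes remove H3K4 methylation, and Kdm5a (ENSMUSG00000030180, chromosome 6, 120341085 to 120421535, plus strand) was the called demethylase. It held 696, 689, 661 and 684 in WT hearts, against 603, 596, 594 and 636 in Mettl3 KO hearts. The highest Mettl3 KO library was below the lowest WT library. Its mean fell from 683 ± 15.2 to 607 ± 19.6 (SD, n = 4), 89.0% of WT, and the log2 fold change of -0.17, with its SE of 0.045, had an adjusted p of 0.0229 in limma. Leaving out WT replicate 1, 2 or 4 or Mettl3 KO replicate 2 or 3 gave -0.17 to -0.16 and adjusted p of 0.0538 to 0.0774. With the atrial index as covariate it was -0.22 (adjusted p = 0.0724).

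The other KDM5 genes were not called. Kdm5b held 324, 296, 320 and 289 in WT hearts, against 314, 299, 308 and 307 in Mettl3 KO hearts, a log2 fold change of 0.00 with an interval of -0.12 to 0.12, and Kdm5c stood at 0.09. The H3K36 demethylase Kdm2a held 759, 707, 712 and 755 against 653, 695, 662 and 652, and its relative Kdm2b 140, 149, 129 and 137 against 120, 104, 117 and 122. In both, all Mettl3 KO libraries were below all WT libraries. Their log2 fold changes of -0.14 and -0.26 had limma adjusted p of 0.0655 and 0.067, just short of the threshold, and Kdm2a was called under 4 of 19 alternative settings and Kdm2b under quantile scaling alone (adjusted p = 0.0497). Kdm7a was the remaining demethylase without overlap, at -0.13.

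Kdm6a and Kdm6b encode demethylases of H3K27 and so work against PRC2. Kdm6a held 302, 275, 287 and 292 in WT hearts, against 242, 289, 271 and 267 in Mettl3 KO hearts, with overlap and a log2 fold change of -0.11, and Kdm6b stood at -0.02. The H3K9 demethylases of the KDM3 and KDM4 families lay between -0.11 and 0.17, and Kdm1a, the flavin-dependent enzyme LSD1, at 0.03. None of these was called. Kdm8, at 0.21, had a mean of 18.4 and an interval of -0.38 to 0.80, too wide to tell a change in either direction.

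None of 11 deacetylase genes was called, beside 7.91% of all genes tested, and their median was -0.09. Class I enzymes HDAC1 and HDAC2 sit in the NuRD, SIN3 and CoREST corepressor complexes. Hdac1 held 82, 83, 72 and 76 in WT hearts, against 95, 61, 85 and 82 in Mettl3 KO hearts, and Hdac2 325, 342, 337 and 365 and 334, 351, 362 and 368. Hdac2 exceeded Hdac1 in normalized read count in every library, uncorrected for transcript length. Both genes overlapped between genotypes, with 95% intervals of -0.23 to 0.29 for Hdac1 and -0.07 to 0.17 for Hdac2.

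Class IIa deacetylases bind MEF2 transcription factors and are known to restrain cardiac hypertrophy. Hdac4 held 339, 310, 355 and 328 in WT hearts, against 356, 349, 341 and 369 in Mettl3 KO hearts. Hdac5 held 354, 371, 349 and 382 against 315, 331, 345 and 338, with no overlap and a log2 fold change of -0.13 (limma adjusted p = 0.182). Hdac9 held 409, 476, 358 and 415 against 320, 420, 394 and 412. Its libraries varied by 2.35 times what counting alone would give, and its -0.10 had a 95% interval of -0.27 to 0.07. It was called only with the atrial index as covariate (-0.44, adjusted p = 0.00549), and it was -0.01 without Mettl3 KO replicate 1, -0.03 without WT replicate 2 and -0.17 without WT replicate 3. The 4 class IIa estimates differed in sign, with Hdac4 at 0.09 and Hdac5, Hdac7 and Hdac9 between -0.14 and -0.10.

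CHD proteins are nucleosome remodellers with chromodomains. Chd6 (ENSMUSG00000057133, chromosome 2, 160788898 to 160950995, minus strand) encodes a remodeller of the subfamily that also holds CHD7, CHD8 and CHD9. It held 818, 813, 818 and 804 in WT hearts, against 676, 737, 735 and 700 in Mettl3 KO hearts. WT libraries lay close together, between 804 and 818, and all Mettl3 KO libraries were below them. The mean fell from 813 ± 6.60 to 712 ± 29.4 (SD, n = 4), 87.5% of WT, and the log2 fold change of -0.19, with its SE of 0.044, had an adjusted p of 0.00728 in limma. Chd6 was called under all 19 alternative settings, the atrial index included (-0.24, adjusted p = 0.0411).

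Its relatives were not called. Chd7, mutated in CHARGE syndrome, held 537, 523, 584 and 525 in WT hearts, against 518, 504, 503 and 496 in Mettl3 KO hearts, without overlap and at -0.10 (limma adjusted p = 0.263), while Chd8 and Chd9 stood at 0.06 and 0.08. Chd4, the main NuRD ATPase, held 1127, 1172, 1206 and 1145 in WT hearts, against 1204, 1057, 1213 and 1176 in Mettl3 KO hearts, a difference of 0.00 with an interval of -0.10 to 0.09.

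Of 13 SMARC genes, 11 had a log2 fold change below 0 (84.6%, beside 51.8% of all genes tested), with a median of -0.07. An unadjusted p under 0.05 was reached by 4 of them (30.8%), 3 lower and 1 higher, where 20.6% of all genes and 31.4% of protein-coding genes with a mean of at least 100 reached it. SMARCA4 (BRG1) and SMARCA2 (BRM) are the alternative ATPases of BAF complexes, the mammalian SWI/SNF remodellers. Smarca4 (ENSMUSG00000032187, chromosome 9, 21527465 to 21615526, plus strand) held 553, 620, 588 and 579 in WT hearts, against 494, 510, 536 and 520 in Mettl3 KO hearts. The lowest WT library, replicate 1, was above the highest Mettl3 KO library, replicate 3. The mean fell from 585 ± 27.7 to 515 ± 17.6 (SD, n = 4), 88.0% of WT, and the log2 fold change of -0.18, with its SE of 0.050, had an adjusted p of 0.0257 in limma. The call depended on most single libraries. Without WT replicate 2, 3 or 4 or Mettl3 KO replicate 1, 2 or 4 it was -0.19 to -0.15 with adjusted p of 0.0510 to 0.102, and with the atrial index as covariate -0.22 (adjusted p = 0.121).

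Smarca2 held 939, 941, 994 and 976 in WT hearts, against 948, 921, 967 and 931 in Mettl3 KO hearts, with overlap and a log2 fold change of -0.03 (95% interval -0.12 to 0.05). The log2 ratio of Smarca2 to Smarca4 was 0.60 to 0.76 in WT and 0.84 to 0.94 in Mettl3 KO libraries. The mean ratio thus moved from 0.72 ± 0.078 to 0.87 ± 0.046 (SD, n = 4). The genes of core scaffold subunits, Smarcc1, Smarcc2 and Smarcb1, stood between -0.10 and -0.01 with overlapping groups. Smarcd1, at -0.24 (limma adjusted p = 0.0994), and its cardiac relative Smarcd3, at -0.03, were not called.

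The ISWI ATPase genes Smarca5 and Smarca1 had log2 fold changes of -0.13 and 0.48. Smarca1 was the member with the largest estimate and held 28, 22, 36 and 38 in WT hearts, against 33, 50, 47 and 43 in Mettl3 KO hearts. Its groups overlapped and it was a low gene (limma adjusted p = 0.125). Leaving out Mettl3 KO replicate 1 gave 0.60, which was called (adjusted p = 0.0498). ARID proteins share a DNA-binding domain, and among them ARID1A and ARID1B are subunits of BAF and ARID2 of the related PBAF complex. Of 9 ARID genes, 0 were called by limma and 0 reached an unadjusted p of 0.05, beside 7.91% and 20.6% of all genes. Arid1a held 728, 755, 755 and 735 in WT hearts, against 715, 674, 755 and 719 in Mettl3 KO hearts, a log2 fold change of -0.06.

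**Figure D2:**
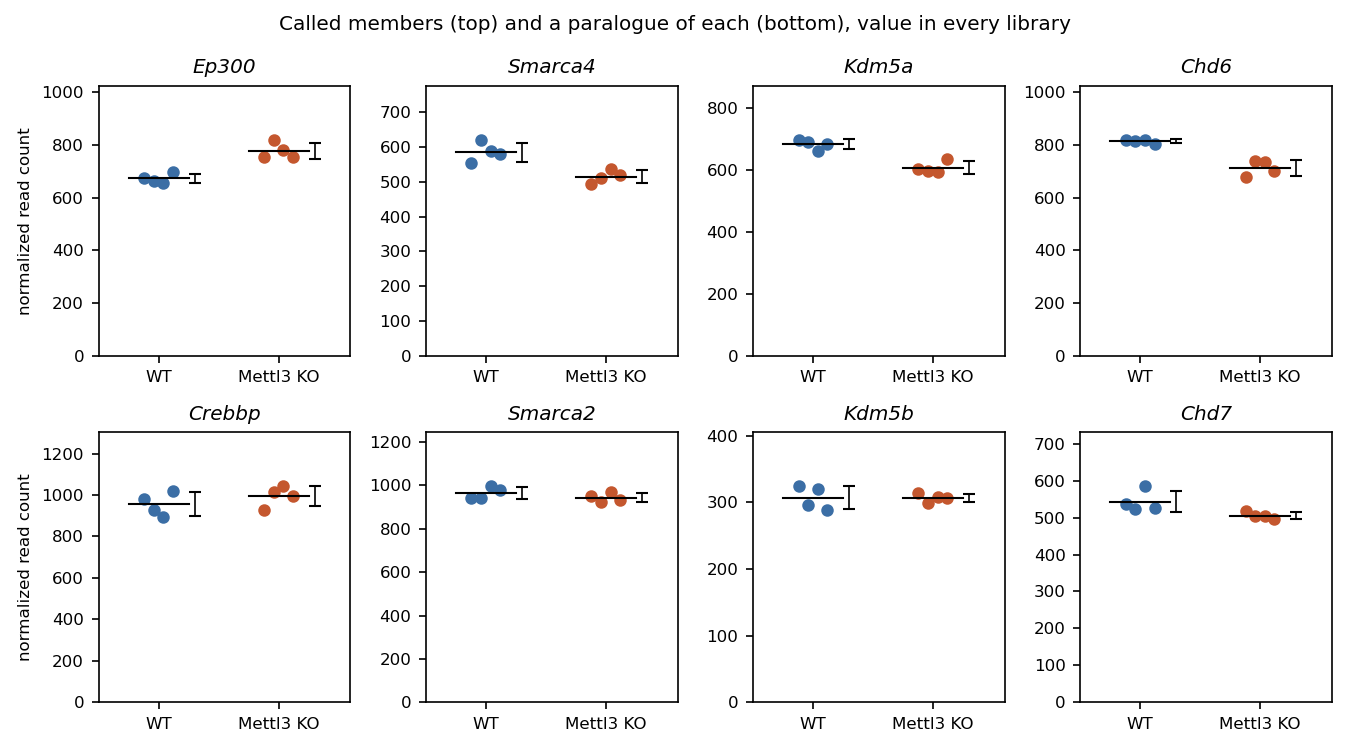
Normalized read count in every library (y axis, from 0) of the 4 called members in the upper row and of a paralogue of each in the lower row, for WT (blue) and Mettl3 KO (orange), with lines for group means and bars for the SD (n = 4). All 4 called genes separate the genotypes, Ep300 upward and the others downward, while Crebbp, Smarca2 and Kdm5b overlap and Chd7 is parted by a narrow gap (WT 523 and above, Mettl3 KO 518 and below).

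Ratios of paralogues cancel the scaling of a library. Of 10 pairs compared, the values of the genotypes were apart in 2, Smarca2 over Smarca4 and Ep300 over Crebbp, each higher by 0.15 on the log2 scale in Mettl3 KO hearts. Ratios are given as a description, since a member of each of these pairs is itself a called gene. Kmt2c over Kmt2d lay at 0.22 to 0.28 in WT hearts and 0.21 to 0.31 in Mettl3 KO hearts.

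**Figure D3:**
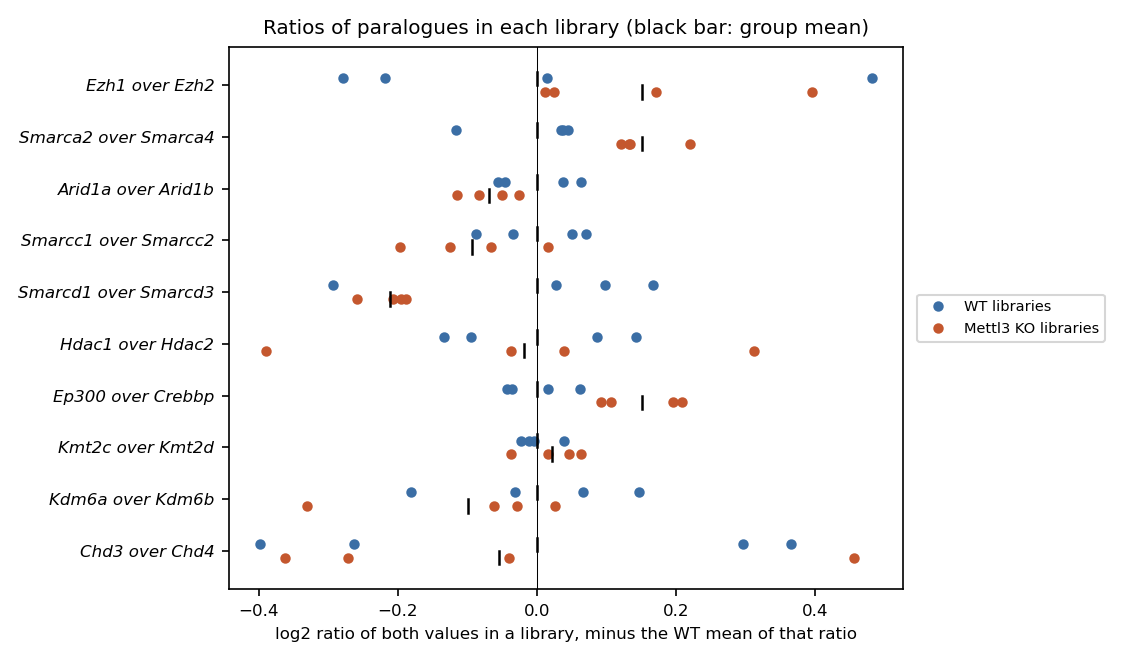
Log2 ratio of the normalized read counts of 10 paralogue pairs in each library, with the WT mean of that ratio subtracted (x axis), WT libraries in blue, Mettl3 KO libraries in orange and group means as black bars. In Smarca2 over Smarca4 and in Ep300 over Crebbp all orange points lie to the right of all blue points, and the other 8 pairs overlap.

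METTL3 acts on adenosines in short sequence contexts, of which GGACT (with U for T in RNA) is a preferred form, often near stop codons. The context nearest to the stop codon in the 4 called genes and their paralogues is shown because these are the transcripts that the comparison turns on. Sequences are from the longest-coding transcript of each gene in GENCODE M21 (GRCm38), 5′ to 3′ on the transcript strand, which alone was searched, with the motif in capitals.
Ep300: cggacctgGGACTgagcagcg
Crebbp: ctcaccctGGACTcgcagtca
Smarca4: atctatgaGGACTccatcgtc
Smarca2: cgggatgtGGACTacagtgat
Kdm5a: agatgaatGGACTtcagaaaa
Kdm5b: gtaattcaGGACTccaataaa
Chd6: tgtctcctGGACTcatctacc
Chd7: gaagagctGGACTccctcgaa
The motif's centre lay within the coding sequence in Ep300, Crebbp, Smarca4, Smarca2, Chd6 and Chd7, at 63, 171, 298, 829, 282 and 49 bases before the end of the stop codon in that order. In Kdm5a and Kdm5b it lay in the 3′ UTR, at 110 and 35 bases after it.

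A match to these letters is a description and not a methylated site. Within 200 bases of the stop codon the motif was found in 29 of the 72 members with a full window (40.3%), and in 40.6% of the 12301 protein-coding genes tested that had one. Anywhere in the transcript, 97.5% of members and 91.9% of protein-coding genes held it, and the members' transcripts were longer, with a median of 5717 against 3004 bases. Per kb, the median number of motifs was 1.00 in members and 1.06 in protein-coding genes. Called genes and their paralogues all held the motif, with 10 in Ep300 and 16 in Crebbp, 7 in Smarca4 and 2 in Smarca2, 12 in both Kdm5a and Kdm5b, and 10 in Chd6 and 14 in Chd7. Across the 79 members, Spearman's rho of the log2 fold change was 0.141 with transcript length and 0.198 with motifs per kb, and over all protein-coding genes tested it was -0.0208 and 0.0173. These values are descriptions across genes of the same libraries, and the number of motifs grows with length.

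By level per length, the called genes ranked 17, 28, 32 and 40 of the 79 members, from the median upward. On the scale of WT mean normalized read count per kb of the same transcript, the highest member was Kmt5a at 401, and then came Chd4 at 178, Hdac2 at 171, Smarca2 at 164 and Smarcc2 at 140. The lowest were Setd1a at 7.32, Kdm8 at 6.80 and Chd5, a neural remodeller, at 0.58. Smarca4 stood at 91.8, Chd6 at 77.3, Ep300 at 70.4 and Kdm5a at 62.4. A level per kb depends on the transcript chosen, and the one used for Hdac9 has no annotated UTR.

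**Figure D4:**
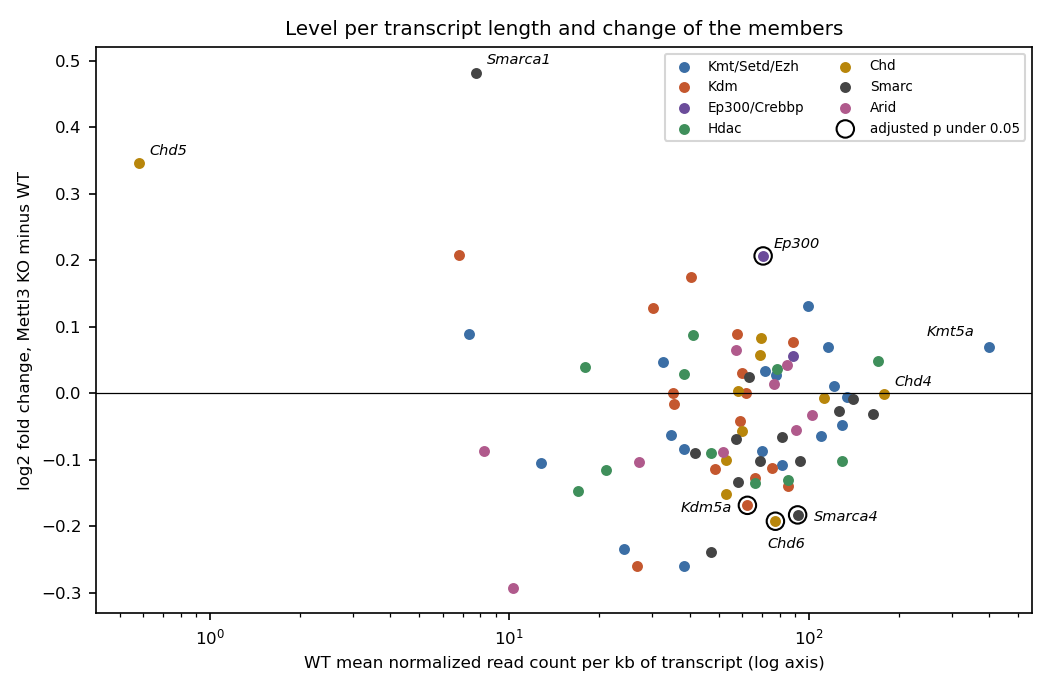
Level of each member as WT mean normalized read count per kb of transcript (x axis, log axis) against its log2 fold change, Mettl3 KO minus WT (y axis), coloured by family, with rings around the 4 members with an adjusted p under 0.05. The ringed genes lie between 62.4 per kb, the median of the members, and 91.8 per kb, and estimates far from 0 on the left, such as Smarca1 and Chd5 above 0 and Arid3b below it, belong to low genes that were not called.

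The spread between libraries of a genotype was close to counting error in the median member. The ratio of the observed coefficient of variation to that expected from a Poisson count of the same size, taking the normalized value as the count, had a median of 0.99 over the 79 members. Chd3, a NuRD ATPase gene, stood apart at 5.85. It held 505, 324, 567 and 348 in WT hearts, against 603, 375, 344 and 355 in Mettl3 KO hearts. The log2 fold change of -0.06 had an interval of -0.37 to 0.26, while with the atrial index as covariate it was 0.64 (adjusted p = 0.0161). With 1 library left out it was -0.24 to 0.08 and not called. WT replicates 1 and 3 and Mettl3 KO replicate 1 were high, in both genotypes. The same 3 libraries were highest for macrophage markers, 1 of the 8 lists examined, and Chd3 was named after its values were seen. Macrophage marker sums were 1533, 1278, 1479 and 1233 in WT hearts, against 1471, 1309, 1256 and 1256 in Mettl3 KO libraries, with 1 of 8 genes lower. The part of these markers in the level of Chd3 was not tested.

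**Figure D5:**
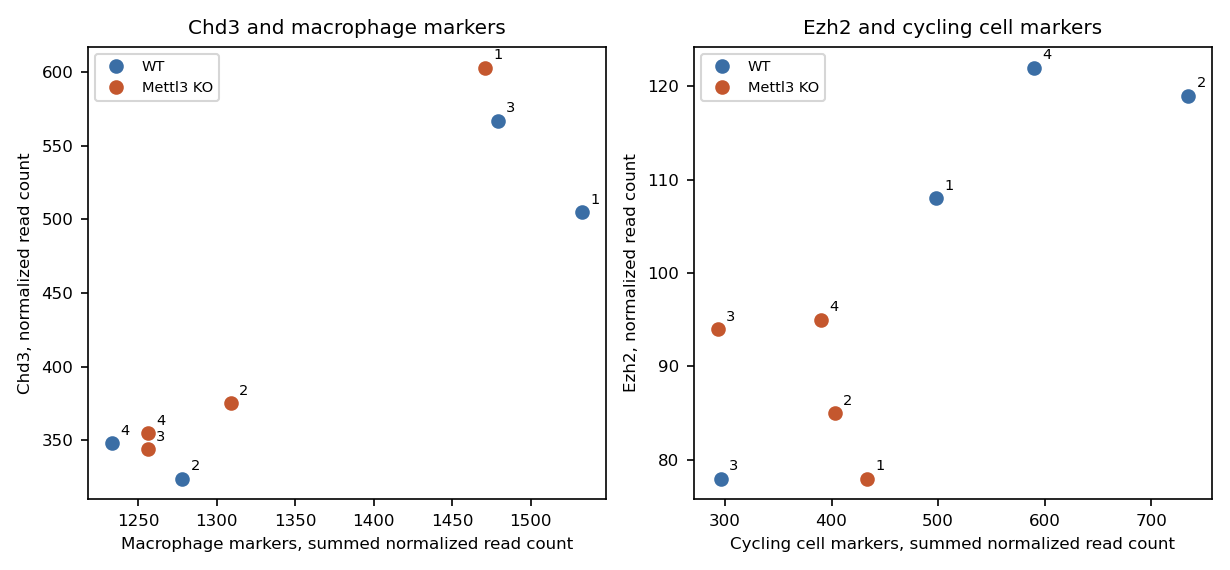
Left, Chd3 against the summed normalized read count of 8 macrophage markers, and right, Ezh2 against that of 6 cycling cell markers, 1 point per library (WT blue, Mettl3 KO orange, numbers are replicates, axes do not start at 0). The 3 libraries with Chd3 of 505 or more have macrophage sums of 1471 or more and the other 5 lie at 1309 or less. WT replicate 3 is the lowest WT library for Ezh2 and for its marker sum. Among Mettl3 KO libraries, replicate 1 is the lowest for Ezh2 and the highest for its marker sum.

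Partners and other chromatin genes were read from a list of 101 genes, of which 100 were listed and tested. Of these, 3 were called by limma (3.00%, beside 7.91% of all genes), the median was -0.03 and 64 of 100 lay below 0. All 3 called genes fell. Smyd4, a gene of the SET and MYND domain family, held 72, 70, 66 and 62 in WT hearts, against 35, 51, 36 and 47 in Mettl3 KO hearts. The groups were well apart, and the mean was 62.6% of WT (log2 fold change -0.68, SE 0.14, limma adjusted p = 0.00326), called under all 19 alternatives.

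Prdm16, a PR domain regulator of transcription known for its role in left ventricular compaction, held 276, 291, 305 and 264 in WT hearts, against 286, 200, 194 and 214 in Mettl3 KO hearts. Mettl3 KO replicate 1 lay among the WT libraries and the other 3 below them, at a log2 fold change of -0.36 (limma adjusted p = 0.0169). Atrial marker sums in the Mettl3 KO libraries were 332, 814, 857 and 1318, lowest in that same replicate. With the atrial index as covariate Prdm16 stood at -0.01 (limma adjusted p = 0.986). Atrial sums did not overlap between genotypes, so index and genotype cannot be told apart in full. The part of the atrial markers in the level of Prdm16 was not tested. The log2 fold change of Prdm16 was -0.48 when Mettl3 KO replicate 1 was left out. Without WT replicate 2 or 3 or Mettl3 KO replicate 2, 3 or 4 it was not called, at limma adjusted p of 0.0545 to 0.0998.

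Bcl7b encodes an accessory BAF subunit. It held 131, 166, 136 and 132 in WT hearts, against 112, 122, 117 and 105 in Mettl3 KO hearts, without overlap, and fell to 80.7% of WT (-0.30, limma adjusted p = 0.0464). No call remained when any 1 library was left out (adjusted p 0.0562 to 0.187), and of these WT replicate 2, with 166, mattered most (-0.22 without it). With the atrial index as covariate Bcl7b stood at -0.31 and was not called (adjusted p = 0.282).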

How the data were processed

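Reads of 72 nt from stranded total RNA libraries had been trimmed with Trimmomatic 0.39, aligned to mm39 (Ensembl 109) with STAR 2.7.11a, freed of duplicates with Picard 3.1.1 and of multi-mapping reads, and counted over exons by strand with featureCounts 2.0.4 by the authors. The deposited values are a score, DESeq2 1.36.0 normalized counts rounded to whole numbers, not raw counts. Leaving out multi-mapping reads can lower genes with near-identical copies.

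Because these are not raw counts, the design's fallback was used. Genes with a mean of at least 1 (20313) were fitted as log2(value + 1) with limma 3.58.1 (R 4.3.3), with trend-moderated variances and no covariate besides genotype, two-sided, Benjamini-Hochberg adjusted over all tested genes. The log2(value + 1) scale understates changes of low genes. Groups, 4 and 4, came from the labels. The labels do not say more of how replicates were taken, so p-values measure the spread between these libraries. No libraries were identical.

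Members and lists were chosen with earlier results of these data known. Values in every library were given for called members and for 17 preset genes, and for related genes past the threshold. Others, such as the members without overlap, paralogues, Chd3 and Smarca1, were named after their values were seen. Alternatives were other scalings, voom, robust variance, pseudocounts of 0.5 and 5, no filter or a mean of at least 10, a replicate block, an atrial index (mean log2 value of the 6 atrial markers) as covariate, and each library left out. Motifs came from GENCODE M21 transcripts (GRCm38), matched by gene identifier for all 79 members and 99.4% of protein-coding genes, with no coordinates used. In simulated data with 200 of 20313 genes changed by 0.5 on the log2 scale, the fit recovered 29% of them. Of the changed genes with a mean of at least 100 it recovered 78.7%, and 0% of its 58 calls were false. Changes as small as those of the called members were not simulated.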

Additional observations from a re-analysis of the deposited data

Results flagged for a closer look

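Each group of 4 libraries of the 29 genes given per library was checked for a library far from the other 3, by its gap to the nearest one over the whole range of the group. Of 58 such groups 3 stood out. Chance alone marks about 1 in 20 groups, but most genes outside the preset ones were named for their results, so the count cannot be read against that rate. Setd2 in Mettl3 KO replicate 1 held 1039 and the others 1015 to 1019, a ratio of 0.833. Chd3 in Mettl3 KO replicate 1 held 603 and the others 344 to 375, a ratio of 0.88. Bcl7b in WT replicate 2 held 166 and the others 131 to 136, a ratio of 0.857, and this gene was not called without that library, nor without any other single one.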

How the results depend on the processing

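Quantile scaling gave 7 called members in place of 4 and moved their median log2 fold change to -0.0507. Between 2 and 4 members were called without 1 library, 2 of them without WT replicate 2, WT replicate 4 or Mettl3 KO replicate 2 (Chd6 and Ep300 each time), and their median was -0.0318 to -0.0133. Called related genes numbered 1 to 3 without 1 library. With the atrial index as covariate there were 5 called members, of which Chd6 is shared with the 4, and 5 called related genes, of which Smyd4 is shared with the 3. Atrial marker sums of the genotypes did not overlap, so index and genotype cannot be told apart in full. In that fit Chd3 was reversed to 0.64 (adjusted p = 0.0161). The cause of these shifts was not tested. Over all genes 1607 were called, 874 with the atrial index and 1019 to 1596 without 1 library, lowest without Mettl3 KO replicate 3. Under the other settings counts stayed within 1.5 times. Replicate numbers did not pair the libraries: same-numbered libraries correlated by -0.0238 to 0.0672, and with the replicate block 4 members, 3 related genes and 1346 genes in all were called. Depth limits members with low values, such as Chd5 and Kdm8, whose intervals are wide.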
